A study of Arabidopsis thaliana with 5 samples.

Results

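The 8 genes described here encode proteins of cell expansion in Arabidopsis thaliana: the alpha-expansins EXPA4, EXPA7, EXPA8 and EXPA18, the xyloglucan-modifying enzymes XTH18 and XTH19, and the growth-promoting proteins EXO and ARL. They were taken by gene symbol from the platform annotation, and each had 1 probe set that names that gene alone, so that they make up 8 of 13513 probe sets with a single gene name. Levels were measured on 5 Affymetrix ATH1 arrays of root cells in which the promoter of BRL3, a brassinosteroid receptor gene, was active. All seedlings carried the reporter pBRL3:nlsYFP, a yellow fluorescent protein sent to the nucleus, and were 6 days old. They spent 2 h in liquid medium with ethanol as mock (3 control arrays, replicates 1 to 3) or with 10 nM brassinolide, abbreviated BL (2 arrays, replicates 1 and 2). Protoplasts of primary root tips were then sorted for the fluorescent protein, so the cells measured are those in which this promoter drove the reporter, after digestion of their walls.

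Plant cells enlarge when turgor stretches a wall that has been loosened. Expansins loosen contacts between cellulose and xyloglucan without cutting them, and XTH enzymes cut xyloglucan chains and can rejoin them. Brassinolide is the most active natural brassinosteroid. Its perception at the cell surface ends in the transcription factors BZR1 and BES1, and wall-loosening genes are among the classical targets of the pathway, with much of that knowledge from seedlings and leaves.

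The arrays were not equally alike. Pearson correlations over the probe sets of an array, which share samples and are no replicates, were 0.898 to 0.916 for control replicate 2 with each other array, 0.992 between the BL arrays, and 0.969 and 0.974 between these and control replicate 1. Probe sets for added bacterial poly-A transcripts had a median level of 7.92 in control replicate 2, 7.25 in control replicate 3, and 4.50 to 4.61 on the other 3 arrays. The differences of the 8 genes are therefore given with all 5 arrays, without control replicate 2, and as the BL mean minus control replicate 1, the control array closest to BL. For other genes the value without control replicate 2 is added where it turned the sign or moved the difference by over 1.5 times. Of 15 listed niche genes of the domain, 4 had a single-gene probe set, and these were dim or moderate. BRL1 was at 4.1 in control replicate 2 and between 5.69 and 6.04 on the other arrays. BBM lay between 5.68 and 7.07. JKD, between 4.02 and 5.07, and AGL42, between 4.098 and 4.555, lay below the median level of every array. So did RCA, the only 1 of 10 listed leaf genes with such a probe set, between 4.50 and 4.95. The purity of the sort was not tested with these few genes. All values are log2 RMA levels, and a level is compared only between arrays, not between genes. Where a bulk sort gives a lower level, fewer cells of a type and less RNA per cell cannot be told apart.

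None of the 8 genes passed the test for a difference between BL and control. limma gave them Benjamini-Hochberg adjusted p values from 0.748 to 0.959, computed over the whole array. The share of all 22746 probe sets called at an adjusted p under 0.05 was 0.0%. At an unadjusted p under 0.05, 0 of the 8 passed, where 7.1% of all probe sets did, and 0 of the 8 reached a 1.5-fold change together with an unadjusted p under 0.01, where 1.57% did. The BL mean was above the control mean for 6 of the 8 (45.3% of all probe sets) and below it for 2, with a median log2 difference of 0.24 over the 8 and -0.02 over all probe sets. Both BL arrays lay above all controls for 1 gene, EXPA8 (11.4% of all probe sets), and below all controls for 1, XTH18 (9.75%).

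The control arrays themselves disagreed on these genes. The controls spanned at least 1 log2 unit for 7 of the 8 genes, against 23.3% of all probe sets, and at least 2 units for 4 of the 8, against 6.32%. Both spans were chosen after the values were seen. The SD over the 3 controls had a median of 1.13 for the 8 genes and 0.264 over all probe sets, while the gap between the BL arrays had medians of 0.47 and 0.12. SD and gap are unlike measures, so each is set only beside its own value over all probe sets. Control replicate 2 lay outside the range of the other 4 arrays for 7 of the 8 genes (58.0% of all probe sets) and at least 1 unit from the mean of the other controls for 6 (13.0%).

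**Figure D1:**
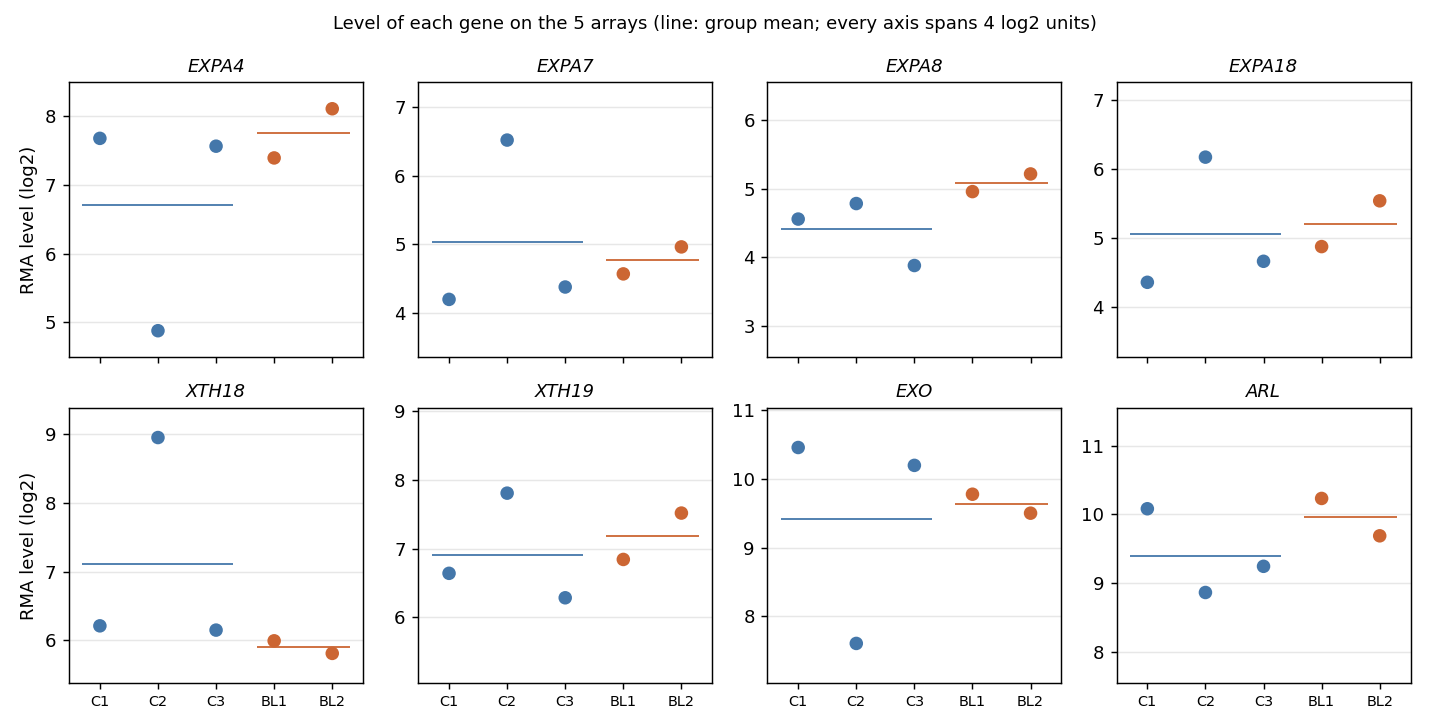
Level of each gene (log2 RMA value) on control replicates 1 to 3 (C1 to C3, blue) and BL replicates 1 and 2 (BL1 and BL2, orange), with lines at the group means and axes of equal span. C2 stands apart for EXPA4, EXPA7, EXPA18, XTH18 and EXO, whose controls C1 and C3 differ by at most 0.31.

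EXPA4, an alpha-expansin, was at 7.68, 4.88 and 7.57 in control replicates 1, 2 and 3, and at 7.39 and 8.11 in BL replicates 1 and 2. The BL arrays lay on either side of control replicates 1 and 3, and control replicate 2 was far below all other arrays. The difference of 1.04 ± 1.02 (SE), a 2.06-fold higher mean with BL, had a 95% interval from -1.74 to 3.83 and did not pass (limma adjusted p = 0.823). Without control replicate 2 it was 0.13 ± 0.302, with an interval from -0.84 to 1.1, and against control replicate 1 it was 0.07. The size of the difference thus rested on the low value of that 1 control array.

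EXPA8, an alpha-expansin counted among brassinosteroid-induced genes, stood at 4.56, 4.78 and 3.88 in the controls and at 4.96 and 5.21 with BL. It was the only one of the 8 genes with both BL arrays above every control, by 0.17 at the nearest point, and it lay below the median level of its array on all 5 arrays. The BL mean was 5.08 ± 0.182 (SD, n = 2), and the control mean 4.40 ± 0.469 (SD, n = 3). The difference of 0.68 ± 0.316 (SE) corresponds to a 1.60-fold higher mean and did not pass (limma adjusted p = 0.748, 95% interval from -0.18 to 1.54). It was 0.87 ± 0.301 without control replicate 2 and 0.53 against control replicate 1. With both BL arrays above every control, no choice of controls could turn its sign.

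EXPA7 and EXPA18 are expansins of root hair cells, expressed as hairs form. EXPA7 was at 4.20, 6.52 and 4.38 in the controls and at 4.57 and 4.97 with BL. EXPA18 was at 4.35, 6.18 and 4.66 in the controls and at 4.87 and 5.54 with BL. Both genes showed the same order of arrays, with control replicates 1 and 3 lowest, the BL arrays above them and control replicate 2 highest. Each was above the median level of its array only in control replicate 2.

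For EXPA7 the sign of the difference hung on control replicate 2, being -0.27 ± 0.824 (SE) with all arrays, 0.48 ± 0.185 without that array and 0.57 against control replicate 1. EXPA18 differed by 0.14 ± 0.653 with all arrays, 0.70 ± 0.306 without control replicate 2 and 0.85 against control replicate 1. The sign of EXPA18 turned without control replicate 1 (-0.21), without control replicate 3 (-0.058) and without BL replicate 2 (-0.19). Neither gene passed with all arrays or without control replicate 2 (limma adjusted p of 0.936 and 0.959, then 0.622 and 0.662). The other root hair list genes with a single-gene probe set, 3 of 32, did not share a direction. SCN1, which confines hair outgrowth to 1 site of the cell, was at 9.03, 10.47 and 9.90 in controls and at 8.68 and 8.47 with BL. Its difference was -1.22 ± 0.468 (SE), with both BL arrays below every control. CSLD2, a wall synthase of hairs, lay between 8.76 and 9.17. It differed by 0.20 ± 0.122, with both BL arrays above every control. The hair gene XTH26 stayed between 3.99 and 4.47. None of these 3 genes passed (limma adjusted p from 0.715 to 0.825). Their part in the values of EXPA7 and EXPA18 was not tested.

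XTH18 and XTH19 are xyloglucan endotransglucosylase/hydrolase genes of the root and lie next to each other in the genome, with 0 protein-coding genes between them in the RefSeq table of assembly TAIR10.1. XTH18 was at 6.21, 8.95 and 6.15 in the controls and at 5.99 and 5.81 with BL. It was the only one of the 8 genes with both BL arrays below every control, by 0.16 at the nearest point. The BL mean was 5.90 ± 0.130 (SD, n = 2) and the control mean 7.10 ± 1.60 (SD, n = 3), a difference of -1.20 ± 1.01 (SE) with a 95% interval from -3.95 to 1.55 (limma adjusted p = 0.808). Without control replicate 2 the difference shrank to -0.28 ± 0.0963 (limma adjusted p = 0.590), and against control replicate 1 it was -0.31.

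XTH19 was at 6.64, 7.81 and 6.29 in the controls and at 6.84 and 7.52 with BL. The BL arrays lay above control replicates 1 and 3 and below control replicate 2, where XTH18 had its BL arrays at the bottom. The difference was 0.27 ± 0.549 (SE) with all arrays (limma adjusted p = 0.901), 0.72 ± 0.317 without control replicate 2 (limma adjusted p = 0.666) and 0.54 against control replicate 1. The sign turned without control replicate 3 (-0.044) and without BL replicate 2 (-0.068). The neighbouring genes had opposite signs in the 3 comparisons first given, and a difference between the responses of the 2 genes was not tested. Shared hybridisation between probe sets of related genes was not analysed here.

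**Figure D2:**
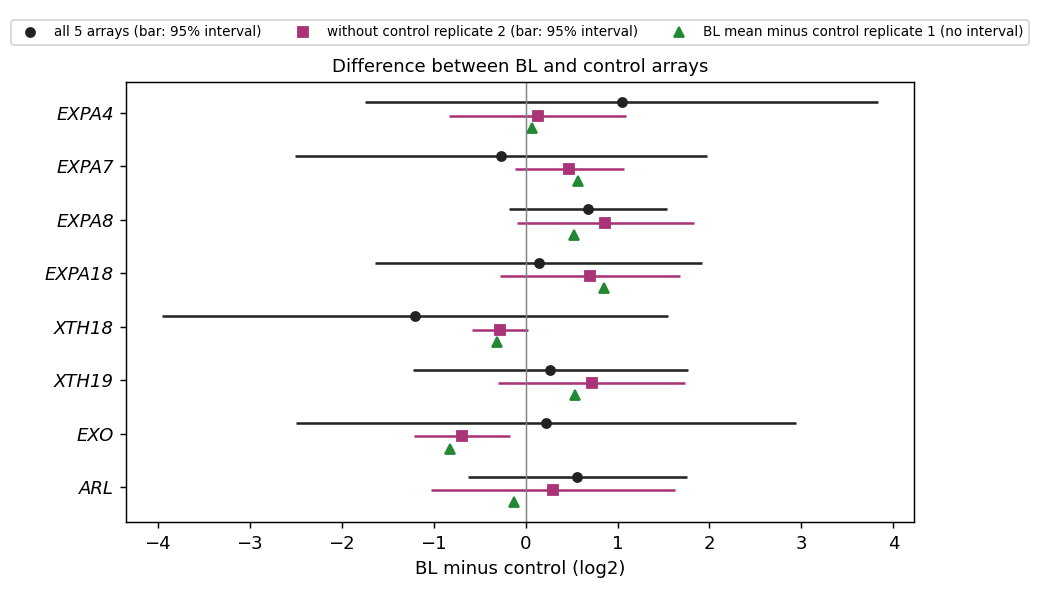
BL minus control for each gene (log2), from limma with all 5 arrays (black circles), from limma without control replicate 2 (purple squares), both with 95% intervals, and as the BL mean minus control replicate 1 (green triangles, no interval). Every interval with all arrays spans 0; without control replicate 2 the intervals are narrower except for EXPA8 and ARL, and that of EXO, from -1.22 to -0.17, does not span 0 before adjustment.

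EXO (EXORDIUM) encodes an extracellular protein that promotes growth in response to brassinosteroid, known mainly from leaves. It was bright on all arrays, at 10.46, 7.61 and 10.2 in the controls and at 9.78 and 9.50 with BL. The BL arrays lay between control replicate 2, the lowest, and control replicates 1 and 3, the highest. With all arrays the BL mean was 9.64 ± 0.195 (SD, n = 2) and the control mean 9.42 ± 1.58 (SD, n = 3), and the difference of 0.22 ± 0.999 (SE) did not pass (limma adjusted p = 0.959). Without control replicate 2 its sign turned, to -0.69 ± 0.164, a 1.61-fold lower mean with BL. That difference had an unadjusted p of 0.0249, as 9.22% of all probe sets in that fit had one under 0.05, and a limma adjusted p of 0.459. Against control replicate 1, EXO differed by -0.82.

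ARL (ARGOS-LIKE) acts downstream of brassinosteroid perception in organ growth through cell expansion. It was at 10.08, 8.86 and 9.24 in the controls and at 10.23 and 9.69 with BL. Here control replicates 2 and 3 were both low, and control replicate 1 lay between the BL arrays. The difference of 0.56 ± 0.437 (SE), with an interval from -0.62 to 1.75, did not pass (limma adjusted p = 0.798). It was 0.30 ± 0.416 without control replicate 2 and -0.12 against control replicate 1, so the higher mean rested on control replicates 2 and 3.

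Without control replicate 2, both BL arrays lay above both remaining controls for 4 of the 8 genes, EXPA7, EXPA8, EXPA18 and XTH19, where 16.5% of all probe sets did. They lay below both for 2, XTH18 and EXO, where 15.5% did, and overlapped for EXPA4 and ARL. With limma, 0 of the 8 passed at an adjusted p under 0.05 in that fit, as 0.0% of all probe sets did, and 1, EXO, had an unadjusted p under 0.05. The BL mean was higher for 6 of the 8 in that fit (49.0% of all probe sets), and for 5 of the 8 against control replicate 1 (50.5%). The median over the 8 was 0.39 in that fit and 0.30 against control replicate 1, and the medians over all probe sets were 0.0 and 0.0029. Without control replicate 1, both BL arrays lay above both remaining controls for 2 of the 8 genes (20.5% of all probe sets) and below both for 1 (23.0%), and without control replicate 3 they did so for 1 (15.1%) and 1 (14.1%).

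**Figure D3:**
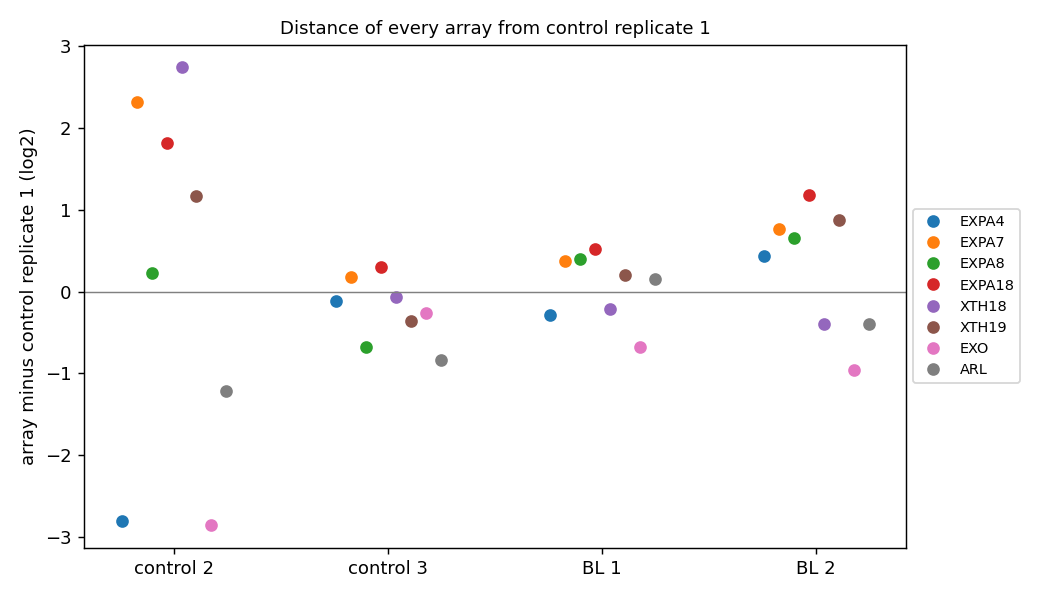
Each array's level minus that of control replicate 1 (log2) for the 8 genes. Control replicate 2 ranges from -2.85 (EXO) to 2.74 (XTH18), control replicate 3 from -0.84 to 0.31, and the BL arrays from -0.96 to 1.19.

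The level in control replicate 2 alone divided the genes. EXPA7, EXPA18, XTH18 and XTH19 were highest in control replicate 2, and EXPA4, EXO and ARL were lowest there. Likeness of pattern was measured as the root mean square distance over the 5 arrays after each gene's own mean was subtracted, which is a description over 5 values. By this measure XTH19 and EXPA18 were 0.248 apart and EXPA7 and EXPA18 were 0.302 apart, whereas EXPA4 and XTH18 were 2.31 apart. Genes on the same side in control replicate 2 were not all close. XTH18 was 0.538, 0.826 and 0.9345 from EXPA7, EXPA18 and XTH19. ARL was 0.878 from EXPA4 and 0.751 from EXO, and EXPA4 and EXO were 0.514 apart. Among the other 13512 single-gene probe sets, the nearest to EXPA7 were AT5G06630 and AT2G41970, at 0.0865 and 0.102, and the nearest to EXPA18 were AT3G23605 and AT1G72140, at 0.171 and 0.172. AT1G27870 and AT3G23605 were nearest to XTH19, at 0.133 and 0.138. The nearest to XTH18 were ndhE and psbT, genes of the chloroplast genome, at 0.0925 and 0.0948. They stood at 6.71 and 6.60 in control replicate 2 and between 3.46 and 3.97 on all other arrays.

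EXPA4 was closest to AT1G06980 and AT1G13000, at 0.139 and 0.191, and EXO to AT5G40250 and AT1G53860, at 0.202 and 0.206. ARL was closest to FUG1 and CW14, at 0.0613 and 0.0849. EXPA8, the gene with the narrowest spread over the arrays, was closest to AT5G15070 and SAT32, at 0.0554 and 0.0792. Between 33 and 238 of the 13512 genes (0.244% to 1.76%) lay nearer to each of the 8 than 0.5 times its own spread. The nearest genes named here were thus not the only close ones.

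The wider expansin family held 18 genes with a single-gene probe set, of 36 so named in RefSeq, and 0 passed the test over all probe sets. EXPA9, an alpha-expansin outside the 8, differed more than any of them. It was at 7.44, 4.58 and 6.36 in the controls and at 9.07 and 9.66 with BL, with both BL arrays above every control. Its difference of 3.24 ± 0.930 (SE) did not pass (limma adjusted p = 0.636), and it was 2.47 ± 0.509 without control replicate 2 and 1.92 against control replicate 1. Of the 14 expansin genes other than the 4 members, 8 had a higher and 6 a lower mean with BL, with a median of 0.0043.

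EXLA1, an expansin-like gene, was at 9.64, 9.34 and 9.93 in the controls and at 9.90 and 10.29 with BL, a difference of 0.46 ± 0.235. Its direct neighbour EXLA3 had a difference of the other sign, -0.47 ± 0.222. EXPA15 differed by 0.25 ± 0.201 and EXPA21, dim on all arrays, by 0.10 ± 0.119, which were 0.38 and 0.018 without control replicate 2. The beta-expansins EXPB3 and EXPB5 differed by -0.65 ± 0.608 and -0.06 ± 0.129, which became -1.08 and 0.014 without control replicate 2. The expansin-like EXLB1 differed by -0.24 ± 0.242. None of these 7 genes passed (limma adjusted p from 0.748 to 0.907).

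The XTH family held 9 genes with a single-gene probe set, of 32 so named in RefSeq, and 0 passed. XTH16 was at 4.95, 6.22 and 4.55 in the controls and at 6.88 and 5.84 with BL. Its BL arrays were 1.04 apart, with control replicate 2 between them, and it differed by 1.12 ± 0.641 with all arrays, by 1.61 without control replicate 2 and by 1.41 against control replicate 1. XTH20, a close relative of XTH18 and XTH19 expressed in the root, was at 8.51, 6.38 and 7.05 in the controls and at 6.08 and 7.14 with BL. Its difference of -0.70 ± 0.767 became -1.17 without control replicate 2 and -1.90 against control replicate 1, the widest such difference among the 9. XTH21 differed by -0.14 ± 0.334, which turned to 0.057 without control replicate 2. The dim genes XTH26, XTH29, XTH32 and XTH33 differed by -0.18 ± 0.183, -0.19 ± 0.166, -0.0090 ± 0.0980 and 0.06 ± 0.164. Without control replicate 2, XTH26 became -0.032, XTH33 became 0.18 and XTH32 turned to 0.039. The limma adjusted p of these 7 genes ran from 0.773 to 0.988.

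**Figure D4:**
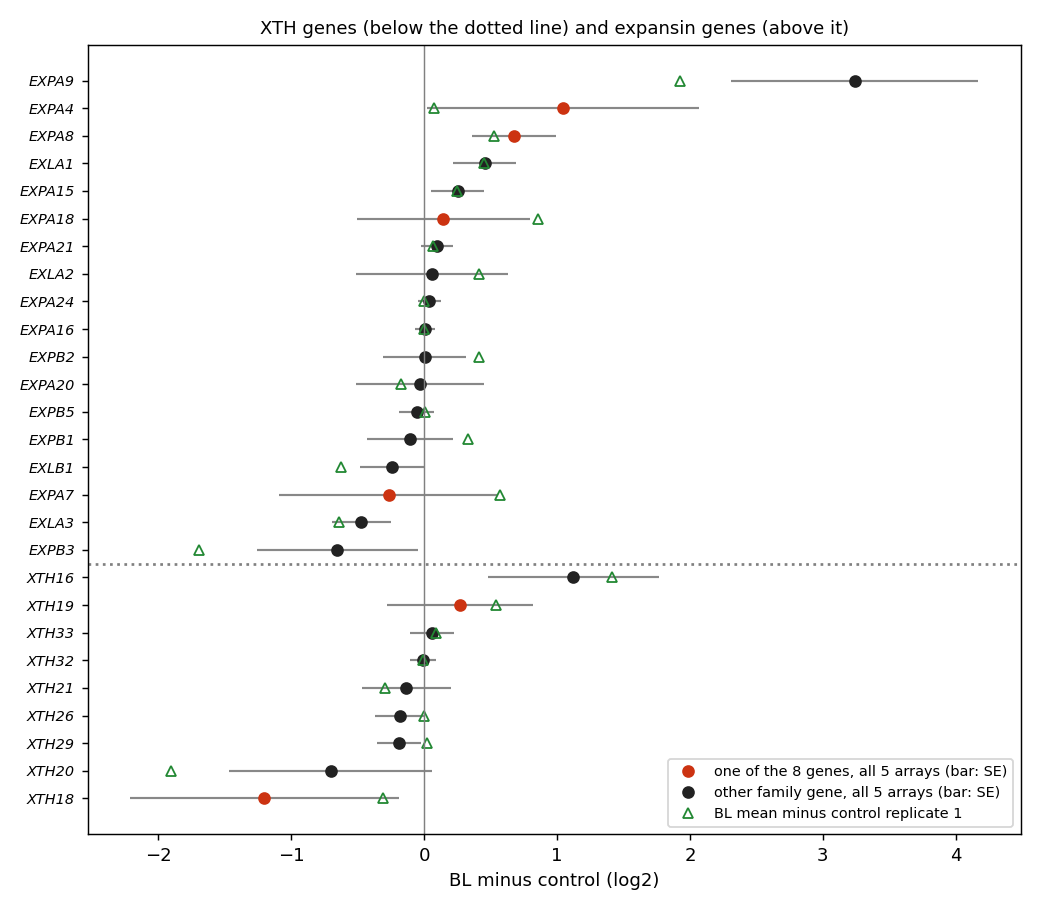
BL minus control (log2) for the 9 XTH genes and the 18 expansin genes with a single-gene probe set, with all 5 arrays (circles, bars are the SE, red for the 6 family genes among the 8) and as the BL mean minus control replicate 1 (open triangles). EXPA9 lies farthest to the right, at 3.24, and no gene passed the adjusted test.

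Other genes of wall building and of brassinosteroid-induced growth gave no call either. In the list of brassinosteroid growth targets, 9 of 53 genes had a single-gene probe set, 6 of them members. Of the 9, 0 passed the adjusted test. The mean was higher with BL for 7 of the 9 (45.3% of all probe sets), and for 2 of the 3 that are not members. Against control replicate 1 it was higher for 5 of the 9 (50.5%). Among cellulose and xyloglucan synthesis genes, 6 of 27 had a single-gene probe set, 2 with a higher and 4 with a lower mean, and 0 passed. COB, a cell surface protein of oriented cell expansion, differed by -0.72 ± 0.339, with both BL arrays below every control. Against control replicate 1 it differed by -0.17. CSLC4, the main synthase of the xyloglucan backbone, differed by -0.12 ± 0.592 with all arrays, by -0.40 without control replicate 2 and by -1.18 against control replicate 1. Its relatives CSLC5, CSLC6, CSLC8 and CSLC12 differed by -0.37, 0.40, -0.03 and 0.06, and CSLC5 and CSLC8 became -0.71 and -0.12 without control replicate 2.

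Of the glucanase and trimming enzymes, 3 of 16 had a single-gene probe set and 0 passed. GH9B7 lay between 10.21 and 10.47 on all arrays. GH9C1 was at 6.72 in control replicate 2 and between 3.88 and 4.73 on the other arrays, an order like that of EXPA7. Its difference of -0.38 ± 0.967 (SE) turned to 0.49 without control replicate 2. GH9C2 was at 9.34, 6.56 and 7.78 in the controls and at 7.94 and 8.18 with BL. Its difference of 0.17 ± 0.883 turned to -0.50 without control replicate 2. For each of these enzymes the 3 control values spanned more than the 2 BL values, though 3 values tend to span more than 2.

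Markers of other cell types that the sort could hold, and of handling, were read on the same arrays. Single-gene probe sets were found for 2 of 10 listed non-hair epidermis genes, 3 of 20 vascular genes and 2 of 18 touch and wound genes. ATMYC1, a regulator of epidermal fate, differed by 1.48 ± 0.112, with both BL arrays above every control. It was dim, at 3.80, 3.80 and 3.77 in the controls and at 5.14 and 5.40 with BL, below the median level of every array. TRY, which patterns hair cells, differed by 0.09 ± 0.0983. Of the vascular genes, PHV, OPS and LHW differed by -0.87, -0.07 and 0.10. Without control replicate 2, OPS became -0.099 and LHW turned to -0.15. In the niche list, BRL1, JKD, BBM and AGL42 differed by 0.70, 0.47, 0.58 and -0.16, and BRL1 and AGL42 became 0.16 and -0.037 without control replicate 2. STZ and WRKY53, transcription factors of stress and wounding, differed by -1.36 and -1.10. Both BL arrays lay below every control for STZ, WRKY53 and PHV. None of these passed (limma adjusted p from 0.317 to 0.932), and their part in the values of the 8 genes was not tested. The cortex, endodermis and root cap lists had no gene matched by symbol and were not analysed here.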

How the data were processed

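RMA was used by the authors to make the deposited log2 expression values (2.99 to 14.1), as the submitters' processing notes state; those notes list affy 1.70.0, R 4.1.1 and limma 3.48.3. A log base of 2 was assumed, since none is stated. Background levels were not analysed here. Of 22810 probe sets, 64 control probe sets were set aside. Of the other 22746, 13513 name 1 gene in the platform annotation, and 13436 of these were found in RefSeq, used for names and neighbours only. Another 503 name several genes and 8730 name none. A family or list gene without a single-gene probe set was therefore unmatched here, and may still be on the array. RMA ties values between arrays for 44.7% of probe sets, but for 0 of the 8 genes.

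The comparison of BL and control used lmFit and eBayes of limma 3.58.1 (R 4.3.3) with treatment alone in the model, 3 residual and 1.22 prior degrees of freedom. P values were adjusted by Benjamini and Hochberg's method across the 22746 probe sets, and 0.05 was the threshold. The fit was tried on simulated data with planted changes and the same spread on every array. These data held no outlying array, so they do not show how the fit behaves with control replicate 2. The labels do not tie replicates to separate seedling batches, so p values measure array-to-array spread, possibly technical. Named genes are the 8 genes, listed genes with a single-gene probe set (the 4 with the smallest p in each direction for the expansin family), and the 2 nearest patterns to each gene. Members and lists were chosen with earlier results of these data known. Alternatives changed the block, arrays, filter, floor, normalization, variance model and weights.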

Additional observations from a re-analysis of the deposited data

How the results depend on the processing

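The 8 genes had 117 alternative values in all, of which 100 kept the direction and 0 passed an adjusted p of 0.05 (limma adjusted p from 0.239 to 1.0). Those 100 are not separate tests. Changes of variance model alone could not turn a sign, and the block and term below repeat differences from other settings. EXPA4, EXPA8 and XTH18 kept their direction in every alternative. For EXPA8 and XTH18, both BL arrays lay on 1 side of every control, so changes of arrays, block or weights could not turn the sign. EXPA4 fell to 0.07 with control replicate 1 alone and to 0.13 without control replicate 2. The sign turned for EXPA7 to 0.57 with a term for control replicates 2 and 3 or with control replicate 1 alone, and to 0.15 with array weights. EXO turned to -0.82 and -0.29 under the same settings, and ARL to -0.12 with the term or with control replicate 1 alone. With 1 array left out, EXPA7 ran from -0.68 to 0.48 (the latter without control replicate 2), EXPA18 from -0.21 to 0.70, XTH19 from -0.068 to 0.72 and EXO from -0.69 (without control replicate 2) to 0.74. Replicate numbers 1 and 2 are shared by both groups, and the correlations of deviations of -0.060 and 0.037 over 2 pairs do not show that they mark shared seedlings. With the replicate block, which leaves control replicate 3 without weight, EXPA18 became -0.058 and XTH19 -0.044. The median over the 8 genes, 0.24 with all arrays, ran from 0.14 (without BL replicate 2) to 0.46 (array weights). It was 0.44 without control replicate 1, 0.39 without control replicate 2 and 0.38 without BL replicate 1, so that each of these arrays moved it by over 1.5 times.

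Over all probe sets, 356 had a fold of 1.5 or more at an unadjusted p under 0.01. That count became 199 with the replicate block and 634 with control replicate 1 alone. Array weights gave 907, the ordinary linear model 118, the floor 236, and the probe sets above the median level 237. At p under 0.05 without a fold minimum it was 1616, and leaving out 1 array gave 98 (BL replicate 1) to 1108 (control replicate 1). Fewer arrays or probe sets enter some of these by construction, and otherwise the cause was not tested. The count of adjusted calls was 0 in every alternative. Counted without each control in turn, an alternative chosen after seeing the data, both BL arrays lay above all remaining controls for 1 to 4 of the 8 genes, with 2 without control replicate 1 and 4 without control replicate 2. They lay below all remaining controls for 1 to 2, with 2 without control replicate 2. The filter at the median level left out EXPA7, EXPA8 and EXPA18. No member had another single-gene probe set, so that alternative gave no value. The number of arrays and the unknown level over background limit what can be said of the dim genes EXPA7, EXPA8 and EXPA18.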
